A study of Mus musculus with 6 samples.

Results

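The 9 genes described here encode parts of the bone morphogenetic protein (BMP) and transforming growth factor-β (TGF-β) signaling pathways: the ligand Tgfb1, the receptors Bmpr2, Acvrl1, Eng and Tgfbr2, the inhibitors Smad6 and Smad7, and the target genes Id1 and Id3. They are 9 of the 32285 genes counted in this series. They were chosen by the earlier finding, in the same libraries, that Smad6 was lower in endothelial cells of ipilimumab-treated mice, and the question was whether other genes of the pathway moved with it. For this reason Smad6 in endothelial cells is given as a description, without a test.

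The samples were 6 right lungs of 12-week-old male hCTLA4 mice, a C57BL/6 line carrying human CTLA4 exons 2 and 3, so that the antibody ipilimumab can bind. All 6 mice, controls included, received bleomycin by the oropharyngeal route at 1.25 U per kg, in 2 doses given 2 weeks apart. From day 21 after the second dose, 3 mice received the isotype control IgG1 and 3 received ipilimumab, both at 5 mg per kg, by 2 injections per week for 4.5 weeks. Each lung was digested and made into a 10x Genomics 3' single-cell library of its own, and mice without bleomycin are not among the samples, so each comparison is between treatments of injured lungs.

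BMP and TGF-β ligands bind pairs of type I and type II receptor kinases on the cell surface, which phosphorylate SMAD proteins that then enter the nucleus and turn on target genes. In endothelial cells the type I receptor Acvrl1 (ALK1), the type II receptor Bmpr2 and the co-receptor endoglin (Eng) respond to circulating BMP9 and BMP10, and inherited loss of these genes causes vascular malformations or pulmonary arterial hypertension. Id1, Id3, Smad6 and Smad7 are classical targets of the pathway, and the SMAD6 and SMAD7 proteins feed back to restrain it.

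The libraries held from 37666042 to 48612412 unique molecular identifiers (UMIs, each standing for a captured RNA molecule), and from 3243 to 4293 cells per mouse were used. Ipilimumab replicate 1 stood apart: 78.1% of its UMIs lay in called cells, against 92.2% to 93.0% in the other 5 libraries, and 22056 of its barcodes had at least 100 UMIs, against 4834 to 6230. Values without that mouse are given below. Pairs of libraries shared from 0 to 7 cell barcodes. Free RNA was estimated at 0.353% to 1.07% of the UMIs of B and T cells, from the RNA of Sftpc, Sftpa1, Scgb1a1 and Bpifa1 in them. The same share of a library was used for every class, and none was estimated in endothelial cells. Cells were clustered without the pathway genes and named by marker genes, as "aerocyte-like" (alveolar capillary cells marked by Car4 and Ednrb, 246 cells), "general capillary-like" (marked by Gpihbp1 and Plvap, 481 cells) and so on. The 7 endothelial markers summed to 85.8 to 97 UMIs per 10000 in aerocyte-like cells, and the aerocyte markers to 51.9 to 61.7 there and to 0.497 to 0.929 in general capillary-like cells.

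Smad6, whose fall led to the choice of these genes, had a lower fitted level with ipilimumab in aerocyte-like and general capillary-like cells. The groups did not overlap for it in aerocyte-like cells, the class in which it was highest. In aerocyte-like cells 1 of the other 8 members (Id3) lay lower without overlap, as did 7.29% of all genes. In general capillary-like cells, where Smad6 overlapped, 4 of the 8 did (Smad7, Id3, Eng and Tgfbr2), as did 6.66% of all genes. The ligand Tgfb1 lay higher without overlap in both capillary classes, as did 7.92% and 6.11% of all genes. The receptors Bmpr2 and Acvrl1 overlapped between the groups in both. None of the 8 members other than Smad6 passed the adjusted threshold in any class tested.

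To show where a SMAD protein could meet these genes, the start of 3 of them is printed, Smad6 because its fall posed the question, and Id3 and Tgfb1 because the groups of mice did not overlap for them in either capillary class. All 3 sequences are RefSeq windows on GRCm38.p6, which held 6 of the 9 members, of 250 bases before the transcript start (and, for Smad6, 4 bases after it), written 5′ to 3′ on the strand of the gene, with searched motifs in capitals.
Smad6, chr9:64022056-64022309, minus strand: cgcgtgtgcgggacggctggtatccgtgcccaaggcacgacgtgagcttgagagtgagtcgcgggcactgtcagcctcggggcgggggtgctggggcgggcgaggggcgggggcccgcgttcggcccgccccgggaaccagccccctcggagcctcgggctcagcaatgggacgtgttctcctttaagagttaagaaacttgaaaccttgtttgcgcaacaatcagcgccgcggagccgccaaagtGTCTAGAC
Id3, chr4:136143572-136143821, plus strand: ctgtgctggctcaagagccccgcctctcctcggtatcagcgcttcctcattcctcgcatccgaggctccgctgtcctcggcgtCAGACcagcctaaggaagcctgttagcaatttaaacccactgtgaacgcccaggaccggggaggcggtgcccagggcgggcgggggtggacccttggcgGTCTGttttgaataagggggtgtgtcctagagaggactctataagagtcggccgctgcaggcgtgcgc
Tgfb1, chr7:25686752-25687001, plus strand: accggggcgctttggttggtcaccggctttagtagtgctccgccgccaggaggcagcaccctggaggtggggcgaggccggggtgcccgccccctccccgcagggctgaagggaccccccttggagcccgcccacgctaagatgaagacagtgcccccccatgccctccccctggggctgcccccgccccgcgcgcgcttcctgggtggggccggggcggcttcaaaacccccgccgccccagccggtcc

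Both strands of each 300-base window, from 250 bases before to 50 after the start, were searched for the palindromic SMAD binding element GTCTAGAC, the GC-rich BMP-SMAD site GGCGCC and the short SMAD box CAGAC, with its reverse complement GTCTG. The Smad6 window held GTCTAGAC across the transcript start of that window, a run found in 70 of 32851 windows (0.213%). The Smad6 gene position given below reaches 64022085, upstream of this start on the minus strand, so by that position the run lies inside the gene. The Id3 and Eng windows each held CAGAC once on each strand, the Tgfbr2 window held it once, and 49.6% of windows held this box. GGCGCC stood in the Bmpr2 window and in 11.9% of all windows. The Tgfb1 window held none of the 3. A match is a run of letters and not a measured binding site.

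Smad6, an inhibitory SMAD that blocks BMP receptor signaling (ENSMUSG00000036867; GRCm38 chromosome 9, 63953076 to 64022085), was an endothelial transcript in these lungs. Its level, as counts per 1e+06 UMIs of the class (CPM), averaged 662 ± 157 (SD, n = 6 mice) in aerocyte-like, 367 ± 79.8 (n = 6) in general capillary-like and 212 ± 72.6 (n = 5) in venous endothelial-like cells. It averaged 19.3 ± 6.53 CPM in fibroblast-like, 0.977 ± 0.626 in alveolar macrophage-like and 0.407 ± 0.195 in T-like cells (n = 6 each). The genes whose class means followed it most closely over 19 classes were Tmem100 (Pearson r = 0.988 of log2(CPM + 10)), Mapt (r = 0.976) and Fendrr (r = 0.972). These correlations are over classes of the same libraries and are given as a description.

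In aerocyte-like cells Smad6 stood at 809, 825 and 757 CPM in the IgG1-treated mice and at 552, 586 and 443 CPM in the ipilimumab-treated mice. The groups did not overlap, and the log2 fold change, ipilimumab over IgG1, was -0.59. The general capillary-like cells had it at 489, 397 and 346 CPM against 384, 342 and 245 CPM, so that the groups overlapped, with a log2 fold change of -0.34. Over all endothelial-like cells, a class of 1044 cells that also holds venous, lymphatic and unnamed endothelial cells, it stood at 566, 483 and 543 CPM against 407, 383 and 301 CPM (log2 fold change -0.53). Pooled over mice, the mix of this class differed between the groups: 107 of its 341 cells with IgG1 and 139 of its 703 cells with ipilimumab were aerocyte-like. By mouse these were 39 of 171, 22 of 67 and 46 of 103 with IgG1. With ipilimumab they were 50 of 313, 31 of 154 and 58 of 236, so that the shares overlapped, and 137 of the 313 cells of replicate 1 were unnamed. Aerocyte markers summed to 21.4 to 35.9 with IgG1 and 18.9 to 20.9 UMIs per 10000 with ipilimumab, without overlap. A change within cells and a change in this mix cannot be told apart in the values over all endothelial-like cells, here and below. Without ipilimumab replicate 1 these log2 fold changes were -0.64, -0.47 and -0.61. Of the aerocyte-like cells, 92.5% in the IgG1 group (Wilson 95% interval 85.9 to 96.2) and 84.9% in the ipilimumab group (78.0 to 89.9) had a Smad6 UMI, at medians of 7793 and 7521 UMIs per cell. With cells thinned to 1000 UMIs these shares were 48.6% and 28.3%, which left out 0 and 1 cells. All these shares pool the cells of the mice of a group. The intervals cover counting error only, not the spread between mice, and are no test of treatment. As background, a Smad6 UMI was found in 0.199% and 0.271% of B-like cells, a type without this transcript, at medians of 5642.5 and 5624 UMIs.

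**Figure D1:**
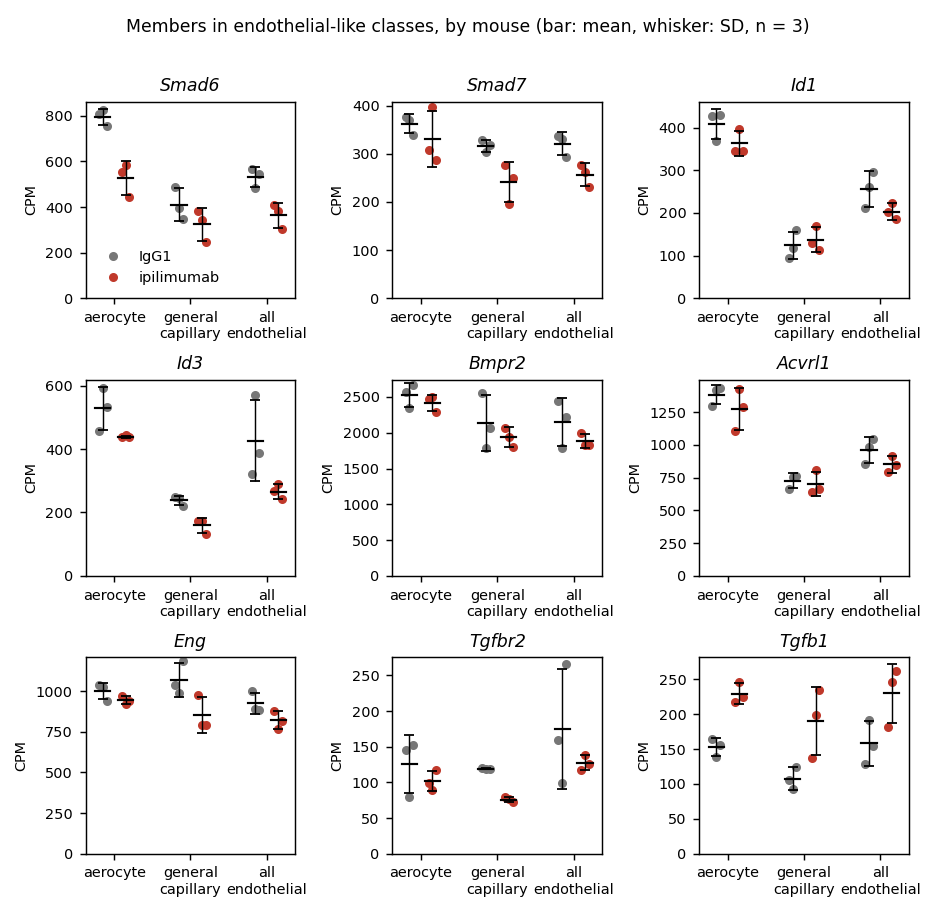
Level of each of the 9 genes (CPM, linear axes from 0) in aerocyte-like, general capillary-like and all endothelial-like cells of each mouse; points are mice, grey for IgG1 and red for ipilimumab, with the mean and SD (n = 3). Smad6 in aerocyte-like cells lies between 757 and 825 CPM with IgG1 and between 443 and 586 CPM with ipilimumab, while Tgfb1 lies higher with ipilimumab in both capillary classes.

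Of the 3 other target genes, none passed the adjusted threshold in an endothelial class, and Id3 was the 1 that lay lower without overlap in both capillary classes. Id1 (ENSMUSG00000042745; chromosome 2, 152736251 to 152737410), an inhibitor of DNA binding, a direct BMP target, stood in aerocyte-like cells at 428, 370 and 430 CPM with IgG1 and at 346, 398 and 345 CPM with ipilimumab. The groups overlapped, and the log2 fold change was -0.18 (standard error, SE, 0.158, edgeR adjusted p = 0.766 over 5477 genes). The general capillary-like cells had Id1 at 94.7, 118 and 159 CPM against 130, 170 and 113 CPM, with a log2 fold change of 0.21 (SE 0.282, edgeR adjusted p = 0.917 over 5659 genes). The sign in general capillary-like cells was thus opposite to that of Smad6, and without IgG1 replicate 1 the value was -0.00. With all endothelial-like cells summed, where aerocyte-like cells pooled over mice were a smaller share with ipilimumab, Id1 had a log2 fold change of -0.31 (SE 0.167, edgeR adjusted p = 0.628 over 8248 genes).

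Id3 (ENSMUSG00000007872; chromosome 4, 136143822 to 136145392) is a relative of Id1 that BMPs also induce. In aerocyte-like cells it stood at 458, 594 and 532 CPM with IgG1 and at 437, 443 and 439 CPM with ipilimumab. The corresponding general capillary-like values were 248, 245 and 221 CPM with IgG1 and 174, 173 and 131 CPM with ipilimumab. The ipilimumab-treated mice lay below every IgG1-treated mouse in both classes, but neither difference passed the adjusted threshold. The log2 fold changes were -0.24 (SE 0.151, edgeR adjusted p = 0.646) in aerocyte-like and -0.57 (SE 0.241, edgeR adjusted p = 0.483) in general capillary-like cells. With all endothelial-like cells summed, Id3 stood at 321, 571 and 389 CPM against 268, 289 and 241 CPM, a log2 fold change of -0.65 (SE 0.208, edgeR adjusted p = 0.416). IgG1 replicate 2 was the highest of these, and without it the log2 fold change was -0.39. The same mouse had the most neutrophil markers in this class, 8.51 UMIs per 10000, against at most 0.87 in the ipilimumab-treated mice. Id3 averaged 2.5 CPM in neutrophil-like and 937 CPM in fibroblast-like cells. Alveolar fibroblast markers in this class reached 1.63 UMIs per 10000 with IgG1 and 0.225 with ipilimumab, with overlap. The part of such cells in the Id3 level was not tested.

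Smad7 (ENSMUSG00000025880; chromosome 18, 75367365 to 75395935), an inhibitory SMAD that both BMP and TGF-β signals induce, stood in aerocyte-like cells at 378, 370 and 340 CPM with IgG1 and at 308, 398 and 288 CPM with ipilimumab, and the groups overlapped (log2 fold change -0.13, SE 0.170, edgeR adjusted p = 0.868). In general capillary-like cells it stood at 329, 304 and 318 CPM against 278, 196 and 249 CPM. Here the groups did not overlap, with a log2 fold change of -0.37 (SE 0.230, edgeR adjusted p = 0.738). The value over all endothelial-like cells was -0.30 (SE 0.157, edgeR adjusted p = 0.624), again without overlap.

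Venous endothelial-like cells were few, 44 in all, and IgG1 replicate 3 had 4 of them, too few to enter (at least 5 were needed), which left 2 mice with IgG1 and 3 with ipilimumab. Id1 stood there at 107 and 285 CPM against 40.3, 99.3 and 104 CPM, a log2 fold change of -1.40 (SE 0.572, edgeR adjusted p = 0.578 over 2912 genes). Smad7 stood at 375 and 342 CPM against 111, 226 and 76.4 CPM (log2 fold change -1.41, SE 0.520, edgeR adjusted p = 0.562). Id3 stood at 429 and 849 CPM against 50.4, 469 and 153 CPM (log2 fold change -1.58, SE 0.667, edgeR adjusted p = 0.584). The groups did not overlap for Id1 and Smad7 and overlapped for Id3. Smad6 itself stood at 241 and 214 CPM against 141, 316 and 146 CPM in these cells, a log2 fold change of -0.20 with overlapping groups, which was 0.01 without ipilimumab replicate 1 and -0.69 without ipilimumab replicate 2. Without IgG1 replicate 2, which leaves 1 IgG1-treated mouse assumed to vary like the others, the log2 fold changes were -0.32 for Id1, -1.40 for Smad7 and -0.87 for Id3. In IgG1 replicate 2 the venous cells also held 24.5 UMIs per 10000 of neutrophil markers and 13.3 of classical monocyte markers, against 0.536 and 4.83 in IgG1 replicate 1, and ipilimumab replicate 3 held 5.97 and 1.67. The classical monocyte list includes Fn1, a TGF-β target, so that sum is not separate from the pathway. Fn1 stood in these cells at 188 and 756 CPM with IgG1 and at 30.2, 81.2 and 13.9 CPM with ipilimumab. Endothelial markers summed to 63.8 to 74.0 with IgG1 and 48.4 to 52.2 with ipilimumab, and immediate early and heat shock genes to 118 to 137 and 89.9 to 106. Alveolar fibroblast markers summed to 0.268 to 4.64 and 0.0 to 0.139, and arterial endothelial markers to 4.02 to 5.14 and 1.26 to 3.83. All of these lay lower with ipilimumab without overlap. Adventitial fibroblast markers lay the other way, also without overlap, at 0.0 to 0.143 with IgG1 and 0.361 to 0.504 with ipilimumab. The class also held general capillary markers, at 19.9 to 28.2 and 8.39 to 21.8, beside its venous markers, at 22.3 to 50.1 and 22.7 to 33.7. Markers of aerocytes, the class in which Smad6 was highest, summed there to 0.804 to 3.07 with IgG1 and 0.202 to 13 with ipilimumab, with overlap. The part of these features in the differences of the venous class was not tested.

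Of the receptors, Bmpr2 (ENSMUSG00000067336; chromosome 1, 59764279 to 59878081), the type II BMP receptor, stood in aerocyte-like cells at 2566, 2349 and 2673 CPM with IgG1 and at 2465, 2501 and 2292 CPM with ipilimumab. Acvrl1 (ENSMUSG00000000530; chromosome 15, 101128522 to 101145336) stood at 1298, 1419 and 1430 CPM against 1109, 1423 and 1287 CPM. Eng (ENSMUSG00000026814; chromosome 2, 32646595 to 32682669) stood at 1038, 1023 and 942 CPM against 973, 922 and 942 CPM. For each of these 3 genes of the endothelial BMP9 and BMP10 receptor complex the groups overlapped in aerocyte-like cells, and the log2 fold changes were -0.06 (SE 0.116), -0.11 (SE 0.130) and -0.06 (SE 0.130), with edgeR adjusted p = 0.926, 0.843 and 0.923.

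In general capillary-like cells Bmpr2 and Acvrl1 overlapped between the groups, with log2 fold changes of -0.12 (SE 0.215, edgeR adjusted p = 0.934) and -0.02 (SE 0.211, edgeR adjusted p = 0.991). Eng stood at 1036, 989 and 1186 CPM with IgG1 and at 979, 793 and 790 CPM with ipilimumab. The highest ipilimumab-treated mouse was just below the lowest IgG1-treated mouse, and the log2 fold change was -0.30 (SE 0.210, edgeR adjusted p = 0.771). Over all endothelial-like cells the log2 fold changes of Bmpr2, Acvrl1 and Eng were -0.17 (SE 0.182), -0.15 (SE 0.161) and -0.15 (SE 0.161).

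Tgfbr2 (ENSMUSG00000032440; chromosome 9, 116087695 to 116175363), the type II receptor for TGF-β itself, stood in aerocyte-like cells at 145, 79.2 and 153 CPM with IgG1 and at 99.6, 89.5 and 117 CPM with ipilimumab, with overlap and a log2 fold change of -0.35 (SE 0.242, edgeR adjusted p = 0.684). Among general capillary-like cells it stood at 121, 118 and 119 CPM against 79.4, 76.0 and 72.0 CPM. Both groups were tight and apart there, but the UMIs behind these levels were few, from 14 to 56 per mouse, and the log2 fold change of -0.63 (SE 0.282) had an edgeR adjusted p = 0.516. The groups overlapped over all endothelial-like cells (log2 fold change -0.47, SE 0.273, edgeR adjusted p = 0.650).

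The ligand gene Tgfb1 (ENSMUSG00000002603; chromosome 7, 25687002 to 25705077) lay the other way, higher with ipilimumab. In aerocyte-like cells it stood at 165, 139 and 155 CPM with IgG1 and at 217, 246 and 225 CPM with ipilimumab, a log2 fold change of 0.57 (SE 0.189, edgeR adjusted p = 0.239). Among general capillary-like cells it stood at 105, 92.9 and 125 CPM against 138, 199 and 234 CPM, a log2 fold change of 0.84 (SE 0.277, edgeR adjusted p = 0.319). All 3 ipilimumab-treated mice were above all IgG1-treated mice in both classes, which share the same lungs, and neither difference passed the adjusted threshold. Over all endothelial-like cells Tgfb1 stood at 128, 192 and 155 CPM against 182, 247 and 262 CPM, where the groups overlapped (log2 fold change 0.58, SE 0.198, edgeR adjusted p = 0.428). Free RNA held more Tgfb1 than these cells did, from 225 to 325 CPM. With free RNA subtracted, at the share found in B and T cells, the log2 fold changes were 0.58 in aerocyte-like and 0.83 in general capillary-like cells. Without ipilimumab replicate 1 they were 0.59 and 1.05.

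In aerocyte-like cells 0 of the 8 members other than Smad6 were called by edgeR (adjusted p under 0.05 and absolute log2 fold change over 0.3) and 0 by DESeq2, where 0.42% of the 5477 genes tested were called. At an unadjusted p under 0.05 there was 1 such member, Tgfb1, against 9.7% of all genes. Of the 8, 1 lay lower without overlap (Id3), as did 7.29% of all genes, and 1 higher (Tgfb1), as did 7.92%. The median log2 fold change of the 8 was -0.12, against -0.00 for all genes. The share of members lower without overlap thus lay near that of all genes.

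In general capillary-like cells 0 of the 8 were called by edgeR and 0 by DESeq2, where 0.0353% of the 5659 genes were called by edgeR. An unadjusted p under 0.05 was reached by 3 of the 8 (Id3, Tgfbr2 and Tgfb1), against 8.64% of all genes. Here 4 of the 8 (Smad7, Id3, Eng and Tgfbr2) lay lower without overlap, as did 6.66% of all genes, and 1 higher (Tgfb1), as did 6.11%. Their median log2 fold change was -0.21, against -0.02 for all genes. Over all endothelial-like cells edgeR called 0 of the 8 members and 0.0% of the 8248 genes, of which 718 (8.71%) had an unadjusted p under 0.05, and DESeq2 called 10 genes and 0 members. Id3 and Tgfb1 had an unadjusted p under 0.05. Smad7, Id3 and Eng lay lower without overlap, as did 8.06% of all genes, and none of the 8 higher, as did 6.61%.

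In venous endothelial-like cells edgeR called 0.0% of the genes and 0 of the 8 members, and 3 of them (Id1, Id3 and Smad7) had an unadjusted p under 0.05, as had 7.62% of all genes. DESeq2 called 4 genes and 0 of these members. Id1 and Smad7 lay lower without overlap, as did 10.4% of all genes in this comparison of 2 mice with 3. In general capillary- and venous-like cells together (525 cells, the other blood endothelium), edgeR called 0.0% of the genes and 0 members, DESeq2 1 gene and 0 members, and 2 members (Smad7 and Id3) had an unadjusted p under 0.05, as had 6.57% of the genes. Smad7 (log2 fold change -0.53, SE 0.220, edgeR adjusted p = 0.702) and Tgfbr2 lay lower without overlap, as did 5.78% of the genes. Id3 had a log2 fold change of -0.99 (SE 0.349, edgeR adjusted p = 0.592) in these cells, and without IgG1 replicate 2 it was -0.43.

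Whether the effect differed between aerocyte-like cells and the other blood endothelium was tested as an interaction with the mouse as a block. Of 7053 genes, 0.0709% were called, and 0 of the 8 members were, by edgeR or by DESeq2, with 0 at an unadjusted p under 0.05. The difference of log2 fold changes, aerocyte-like minus other blood endothelium, was 0.68 for Id3 (SE 0.338, edgeR adjusted p = 0.908), 0.41 for Smad7 (SE 0.308, edgeR adjusted p = 0.949) and 0.21 for Eng (SE 0.273, edgeR adjusted p = 0.977). For Smad6 it was -0.26, given without a test. A difference between the classes in the fall of Smad6 was therefore not tested.

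**Figure D2:**
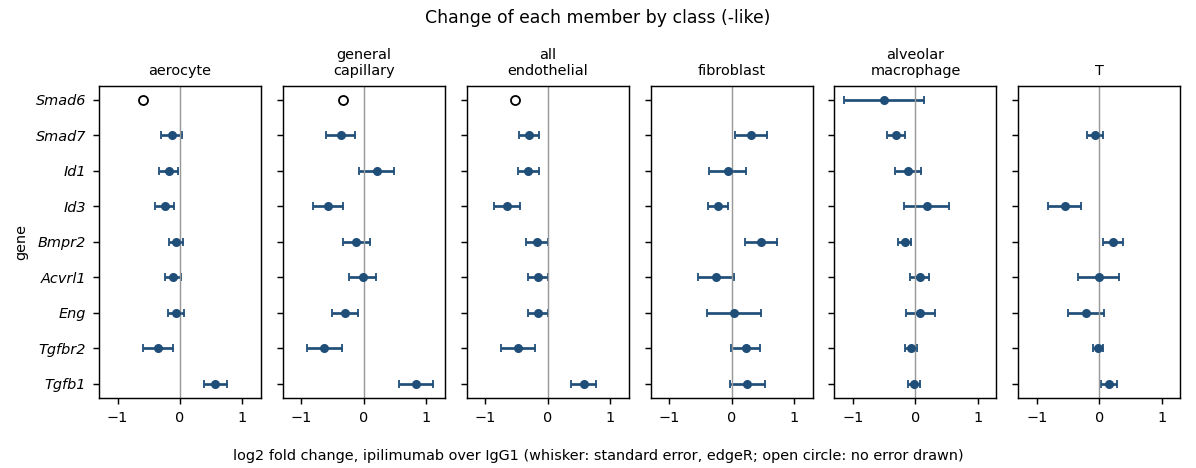
Log2 fold change, ipilimumab over IgG1, of the 9 genes in 6 classes; filled points carry the standard error of the edgeR fit, and open circles mark Smad6 in endothelial-like classes, for which no error is drawn. In aerocyte-like cells Smad6 lies at -0.59 and Tgfb1 at 0.57, and the other 7 genes lie between -0.35 and -0.06.

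Other measured features moved with treatment in the same sums. The 11 immediate early and heat shock genes, which tissue digestion can induce, summed in aerocyte-like cells to 58.9 to 75.8 UMIs per 10000 with IgG1 and to 77.7 to 86.5 with ipilimumab, without overlap, and of them Junb (log2 fold change 0.86, SE 0.135, edgeR adjusted p = 0.00157) and Fos (0.76, SE 0.142, edgeR adjusted p = 0.0106) were called. In general capillary-like cells, where the same sums were 95.8 to 112 and 90.5 to 112, none of the 11 were called. The part of these genes in the differences of Smad6, Id3 and Tgfb1 was not tested. Of the leukocyte markers in aerocyte-like cells, those of interstitial macrophages were at 0 in every mouse, those of T cells reached at most 0.0486 per 10000 and those of alveolar macrophages at most 0.066. Nonclassical monocyte markers summed to 6.41 to 10.8 with IgG1 and 4.87 to 7.61 with ipilimumab, and mast cell or basophil markers, of which 1 of 5 genes was found, to 2.93 to 3.76 and 3.08 to 3.13. B cell markers (2.43 to 3.1 against 1.72 to 1.99) and dendritic cell markers (2.56 to 4.16 against 2.26 to 2.54, from 3 of 6 genes) were lower with ipilimumab without overlap. The nonclassical monocyte, mast cell and dendritic lists hold Ace, Gata2 and Zbtb46. The paper lists these genes beside Pecam1 and Cdh5 among those lower with ipilimumab in its AT2 cluster. Smad6, Id1, Bmpr2 and Acvrl1 are also given there as lower. In aerocyte-like and in general capillary-like cells the groups of mice overlapped here for Id1, Bmpr2 and Acvrl1. The paper's cluster was not rebuilt, and the cause of this difference was not tested. The B cell list summed in fibroblast-like cells to 4.51 to 8.27 with IgG1 and 3.42 to 8.18 with ipilimumab. In T-like cells it summed to 0.322 to 0.589 and 0.268 to 0.876. Sums of these 4 lists cannot be read as leukocyte RNA alone, and the part of each gene in them was not tested. The aerocyte markers themselves, beside the fall of Smad6, summed to 56.0 to 61.7 with IgG1 and 51.9 to 55 with ipilimumab, and general capillary markers in the same cells to 0.132 to 0.539 and 1.08 to 2.51, both without overlap. In general capillary-like cells, where Smad7, Id3, Eng and Tgfbr2 lay lower, the endothelial markers summed to 72.4 to 77.3 with IgG1 and 65.4 to 69.0 with ipilimumab, and the general capillary markers to 31.5 to 34.0 and 26.5 to 30.9, again lower without overlap. The part of these marker differences in the members' differences was not tested. In all endothelial-like cells, 252 were of low depth and unnamed, 137 of them from ipilimumab replicate 1. In these cells Smad6, Smad7, Id1, Bmpr2, Acvrl1 and Tgfb1 averaged higher with ipilimumab, and Id3, Eng and Tgfbr2 lower. Smad7 averaged 153.6 CPM with IgG1 and 288.3 CPM with ipilimumab, and Eng 656.5 and 577.4 CPM. The groups overlapped for Smad7, at 0.0 to 258.4 CPM with IgG1 and 227.5 to 333.6 CPM with ipilimumab. IgG1 replicate 2 gave only 9 of these cells, with 7789 UMIs in all. None of these differences was tested.

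The pathway was also followed in a list of 60 other genes, made with earlier results of these data known. In aerocyte-like cells 19 of them were tested and 0 were called by edgeR. Those with the smallest unadjusted p all lay lower with ipilimumab: Acvr2a, an activin and BMP type II receptor, at 152, 139 and 148 CPM against 83.7, 98.4 and 74.3 CPM (log2 fold change -0.80, SE 0.227, edgeR adjusted p = 0.145); Smurf2, a ubiquitin ligase that works with the inhibitory SMADs to remove receptors, at 917, 1060 and 806 CPM against 650, 689 and 669 CPM (log2 fold change -0.45, SE 0.141, edgeR adjusted p = 0.21); and Itgav, an integrin chain that helps free TGF-β from its latent form, with a log2 fold change of -0.76 (SE 0.288, edgeR adjusted p = 0.325). None of the 3, which were picked by smallest p, overlapped between the groups, and 7.29% of all genes lay lower without overlap. Of the 19 genes, 3 lay lower and 0 higher at an unadjusted p under 0.05, which 9.7% of all genes reached in either direction. The median of the 19 was -0.08, against -0.00 for all genes.

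In general capillary-like cells 28 of the 60 were tested, 0 were called, and 1 lay higher and 4 lower at an unadjusted p under 0.05, which 8.64% of all genes reached in either direction. Itgb6, the β chain of a TGF-β-activating integrin, rested on few UMIs, 6, 2 and 2 with IgG1 and 24, 12 and 19 with ipilimumab (log2 fold change 1.55, SE 0.495, edgeR adjusted p = 0.286). Airway secretory markers in these cells summed to 0.0567 to 0.253 UMIs per 10000 with IgG1 and 0.683 to 3.1 with ipilimumab, without overlap. The part of airway RNA in the Itgb6 difference was not tested. Smad4, the partner shared by BMP and TGF-β SMADs, stood at 153, 127 and 204 CPM against 98.3, 111 and 73.8 CPM (log2 fold change -0.77, SE 0.276, edgeR adjusted p = 0.365). Bmp6, a BMP ligand, had a log2 fold change of -0.54 (SE 0.241, edgeR adjusted p = 0.516) with overlapping groups. Over all endothelial-like cells 35 were tested and 0 called, and Smurf2 stood at 591, 583 and 605 CPM against 437, 378 and 371 CPM (log2 fold change -0.56, SE 0.155, edgeR adjusted p = 0.359). Itgb6 had a log2 fold change of 1.62 there (SE 0.399, edgeR adjusted p = 0.308), and airway secretory markers summed to 0.0935 to 0.213 with IgG1 and 0.451 to 2.05 with ipilimumab, again without overlap. Fn1, the matrix protein fibronectin and a TGF-β target, had a log2 fold change of -3.02 that rested on IgG1 replicate 2, at 256 CPM against at most 14.0 in any other mouse, and without that mouse it was 0.01.

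Outside the endothelium no member passed the threshold in a class. In fibroblast-like cells, 305 in all, 8 members were tested, 0 were called by edgeR or DESeq2, where edgeR called 0.0298% of 6716 genes, and 0 had an unadjusted p under 0.05. Id3 stood at 1113, 944 and 962 CPM with IgG1 and at 865, 885 and 853 CPM with ipilimumab. It was the 1 member that lay lower without overlap, as did 7.15% of the genes, and its log2 fold change was -0.22 (SE 0.162, edgeR adjusted p = 0.74). Bmpr2 stood at 267, 504 and 278 CPM against 571, 378 and 508 CPM (log2 fold change 0.47, SE 0.258, edgeR adjusted p = 0.63), and Smad7 had a log2 fold change of 0.31 (SE 0.256), so that both lay on the other side of 0 from their endothelial values. Tgfbr2 (0.23, SE 0.234) and Tgfb1 (0.25, SE 0.279) also overlapped between the groups. Smad6 had from 4 to 21 UMIs per mouse and was not tested. The class held different subtypes in the groups, with 3 alveolar fibroblast-like cells of 109 with IgG1 and 25 of 196 with ipilimumab. Of the 305 cells 28 were alveolar and 181 adventitial fibroblast-like, and the rest were of neither subtype. In alveolar fibroblast-like cells (n = 2 mice, both with ipilimumab) Id3 averaged 674 CPM, Bmpr2 751 and Tgfbr2 473. The Id3 values of these mice lay far apart, at 337.7 and 1010 CPM. In adventitial fibroblast-like cells (n = 6) the 3 genes averaged 1046, 380.5 and 196 CPM. Within the adventitial cells Id3 overlapped between the groups, at 951 to 1153 CPM with IgG1 and 838 to 1221 with ipilimumab, as did Bmpr2 and Tgfbr2, so that a change within cells and a change in this mix cannot be told apart over the whole class. Of the 60 other pathway genes 40 were tested and 0 called. Crim1, a binding protein that restrains BMPs, stood at 125, 163 and 89.9 CPM against 242, 279 and 244 CPM (log2 fold change 1.01, SE 0.236, edgeR adjusted p = 0.246), and Tgfb2, another TGF-β ligand, had a log2 fold change of 0.65 (SE 0.237, edgeR adjusted p = 0.415).

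The pericyte or smooth muscle-like class held 73 cells, IgG1 replicate 2 had 1 of them and was left out, and 6 members could be tested. Of these 0 were called, by edgeR (0.0% of 2498 genes) or DESeq2, and 0 had an unadjusted p under 0.05. Id1 stood at 95.2 and 176 CPM against 13.8, 35.6 and 89.9 CPM (log2 fold change -1.56, SE 0.785, edgeR adjusted p = 1.0), on 2 to 32 UMIs per mouse, and lay lower without overlap, as did 10.0% of the genes. The immediate early and heat shock genes summed there to 284 to 297 UMIs per 10000 with IgG1 and 202 to 228 with ipilimumab, also without overlap, and their part in the Id1 difference was not tested. Id3 stood at 894 and 1598 CPM against 2085, 1796 and 1565 CPM, a log2 fold change of 0.58 (SE 0.380) with overlap, which was -0.13 with pathway genes kept in the clustering.

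In alveolar macrophage-like cells, 3141 in all, the 9 members were tested. Of these 0 were called by edgeR (0.0% of 12416 genes) or DESeq2, and 0 had an unadjusted p under 0.05. The class held far more UMIs in all than the endothelial classes, but not for every member. Smad6 averaged only 0.977 CPM, with a log2 fold change of -0.50 (SE 0.644, edgeR adjusted p = 0.922). Id3 and Eng averaged 4.08 and 4.85 CPM. Tgfb1 stood at 358, 314 and 357 CPM with IgG1 and at 358, 349 and 301 CPM with ipilimumab (log2 fold change -0.03, SE 0.0952, edgeR adjusted p = 0.959). Tgfbr2 (-0.07, SE 0.0947) and Bmpr2 (-0.17, SE 0.104) also overlapped between the groups. Smad7 stood at 10.9, 10.8 and 11 CPM against 9.9, 7.4 and 9.3 CPM, the 1 member lower without overlap, as were 3.87% of the genes (log2 fold change -0.31, SE 0.147, edgeR adjusted p = 0.901, and 0.17 with doublets kept). In interstitial macrophage-like cells, 109 in all, 6 members were tested and 0 were called by edgeR (0.0% of 5132 genes) or DESeq2, with 0 at an unadjusted p under 0.05. Tgfb1 stood there at 319, 355 and 291 CPM against 454, 410 and 355 CPM (log2 fold change 0.32, SE 0.252, edgeR adjusted p = 0.98).

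T-like cells, 4837 in all, expressed Tgfbr2, Smad7 and Tgfb1. Tgfbr2 stood at 584, 578 and 611 CPM with IgG1 and at 553, 561 and 617 CPM with ipilimumab (log2 fold change -0.02, SE 0.0809, edgeR adjusted p = 0.967). Smad7 stood at 312, 348 and 325 CPM against 252, 330 and 345 CPM (log2 fold change -0.07, SE 0.128), and Tgfb1 at 86.1, 111 and 84.8 CPM against 100, 92.5 and 120 CPM (log2 fold change 0.16, SE 0.129). Groups overlapped for all 7 members tested, 0 were called by edgeR (0.0% of 11786 genes) or DESeq2, and 0 had an unadjusted p under 0.05. Id3 had the largest log2 fold change, -0.56 (SE 0.264, edgeR adjusted p = 0.738), and Bmpr2 one of 0.22 (SE 0.159), both at under 30 CPM. Of the other pathway genes Tgfbr3, the TGF-β co-receptor betaglycan, stood at 48.5, 50.4 and 46.6 CPM against 33.8, 38 and 39.6 CPM (log2 fold change -0.37, SE 0.103, edgeR adjusted p = 0.718).

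**Figure D3:**
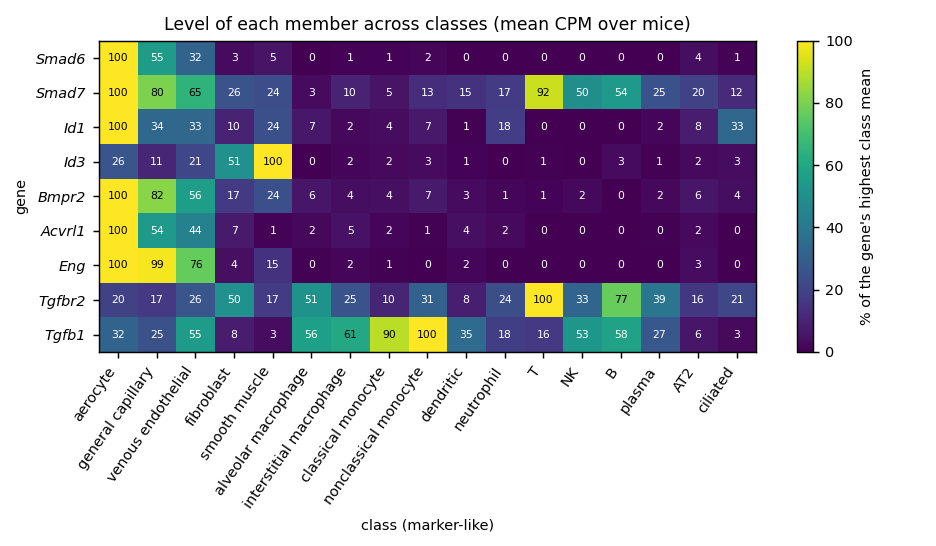
Mean level of each member over mice in 17 classes, as a percentage of its own highest class mean, so that rows cannot be compared with each other. Among these classes Smad6, Smad7, Id1, Bmpr2, Acvrl1 and Eng peak in aerocyte-like cells, Id3 in smooth muscle-like, Tgfbr2 in T-like and Tgfb1 in nonclassical monocyte-like cells.

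The order of levels is given over the 17 classes plotted, which leave out cycling-like and unnamed cells, subtypes of fibroblasts and classes measured in fewer than 5 mice. Outside them Tgfbr2 stood at 1311 CPM in the lymphatic endothelial-like cells of 1 mouse, and Id1 at 541.5 in the mesothelial-like cells of 1 mouse. Acvrl1 averaged 1328 ± 125 CPM (SD, n = 6 mice) in aerocyte-like and 715 ± 68.8 in general capillary-like cells, and Eng 973 ± 47.6 and 962 ± 152, which do not differ beyond their spread. Bmpr2 averaged 2474 ± 140 CPM in aerocyte-like and 2036 ± 282 in general capillary-like cells, and Id1 386 ± 38.3 and 131 ± 28.6. Smad7 was at 347 ± 42.8 CPM in aerocyte-like and 319 ± 35.4 in T-like cells, which overlap in spread, and at 187 ± 22.7 in B-like cells. Id3 was highest in smooth muscle-like cells (1848 ± 613 CPM, n = 5), followed by fibroblast-like (937 ± 96.6, n = 6) and aerocyte-like cells (484 ± 64.8). Of the 17 classes, Tgfbr2 was highest in T-like cells (584 ± 25.8), then in B-like (449 ± 17.1) and alveolar macrophage-like cells (298 ± 24.3). Tgfb1 was highest in nonclassical (602 ± 60.4) and classical monocyte-like cells (540 ± 78.9), which overlap in spread, and in interstitial macrophage-like (364 ± 59.5), B-like (346 ± 55.7) and alveolar macrophage-like cells (340 ± 25.3).

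By class means, the gene most like each other member was Ablim1 for Smad7 (r = 0.888), Mtus1 for Id1 (r = 0.917), Casp12 for Id3 (r = 0.938), Pttg1ip for Bmpr2 (r = 0.938), Kank3 for Acvrl1 (r = 0.947), Pcdh17 for Eng (r = 0.983), Tnrc6c for Tgfbr2 (r = 0.765) and Coro1c for Tgfb1 (r = 0.904). Fendrr was among the 3 nearest genes of both Smad6 (r = 0.972) and Eng (r = 0.979).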

How the data were processed

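The authors mapped reads to mm10 by Cell Ranger (version 7.0.0 in the submitters' processing notes) and deposited unfiltered matrices of UMI counts per gene and barcode. No deposited column was left unused as belonging to another sample (0 columns).

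Cells were called again from these counts by UMI total and by departure from the free RNA profile (false discovery rate 0.01), with at least 200 genes and at most 10% mitochondrial UMIs. Likely doublets were removed by simulated doublets. Cells were clustered by the Leiden method (leidenalg 0.10.2, Python 3.11.15) at resolution 0.8 on 2000 variable genes, after 69 pathway genes had been held out. Clusters were named "X-like" from fixed markers, and 861 of 23898 cells stayed unnamed. Raw counts were summed per mouse and class (at least 5 cells) and tested with edgeR 4.0.16 (R 4.3.3) by its quasi-likelihood test with TMM normalization and filterByExpr, adjusted by Benjamini-Hochberg over all genes tested in a class. Calls needed both an adjusted p below 0.05 and a log2 fold change beyond 0.3 in size. DESeq2 1.42.0 was an alternative. The tests were tried on simulated counts.

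The members, gene lists and marker lists were chosen with earlier results of these data known. The genes named were the 9 members, at most 3 other pathway genes per class by smallest p, and the 3 genes most correlated with each member; of these, those the text needed are given. The study's own cell labels were not used here. With 3 mice per group an exact permutation test cannot go below p = 0.1, so none was run. Intervals on shares of cells cover counting error only. Promoter windows came from RefSeq (GRCm38.p6) and gene positions from the same build.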

Additional observations from a re-analysis of the deposited data

How the results depend on the processing

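Of 74 log2 fold changes followed through up to 16 alternatives, 11 turned sign, as did the untested Smad6 of venous endothelial-like cells (0.01 without ipilimumab replicate 1). In the 170 alternative fits 0 members were called, with endothelial Smad6 left out of the count. Smad6 in aerocyte-like cells ranged from -0.65 to -0.47 and Tgfb1 from 0.51 to 0.64. Signs turned in general capillary-like cells for Id1 (-0.00) and Bmpr2 (0.05) without IgG1 replicate 1 (from -0.00 to 0.43 and from -0.22 to 0.05 over mice left out), and for Acvrl1 without a filter on low counts (0.05), at resolution 0.4 (0.00) and leaving out mice (from -0.11 to 0.07). In pericyte or smooth muscle-like cells Id3 was -0.13 with pathway genes kept in clustering. In alveolar macrophage-like cells Smad7 was 0.00 with cells called by UMI total alone, 0.17 with doublets kept and 0.01 with pathway genes kept, Tgfb1 ranged from -0.09 to 0.02 over mice left out, and Inhba was -0.03 without ipilimumab replicate 3 (highest 5.52). In T-like cells Smad7 and Tgfbr2 ranged from -0.16 to 0.07 and from -0.08 to 0.03. In fibroblast-like cells Thbs1 was -0.10 with UMI total alone and -0.09 at resolution 0.4, and over all endothelial-like cells Fn1 was 0.01 without IgG1 replicate 2 (lowest -3.62). The cause of these turns was not tested.

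The number of genes called moved by over 1.5 times in part of the fits. As reported it was 23 in aerocyte, 2 in general capillary, 0 in venous endothelial, 0 in other blood endothelial, 0 in all endothelial, 2 in fibroblast, 0 in pericyte or smooth muscle, 0 in alveolar macrophage, 0 in interstitial macrophage, 0 in T, 5 in the difference (cell names without "-like"). With the DESeq2 test it was 14 in aerocyte, 4 in venous endothelial, 1 in other blood endothelial, 10 in all endothelial, 11 in fibroblast, 2 in pericyte or smooth muscle, 1 in alveolar macrophage, 1 in interstitial macrophage, 15 in T, 0 in the difference. With no filter on low counts it was 101 in aerocyte, 46 in general capillary, 35 in venous endothelial, 79 in other blood endothelial, 218 in all endothelial, 211 in fibroblast, 29 in pericyte or smooth muscle, 1 in alveolar macrophage, 72 in interstitial macrophage, 191 in T, 19 in the difference. With cells called by UMI total alone it was 13 in aerocyte, 4 in general capillary, 0 in fibroblast, 1 in the difference. With doublets kept it was 0 in aerocyte, 0 in general capillary, 1 in all endothelial, 4 in fibroblast, 1 in T, 0 in the difference. With resolution 1.6 it was 0 in general capillary, 3 in the difference. With ambient subtracted it was 0 in general capillary. With DESeq2 size factors it was 1 in venous endothelial, 3 in the difference. With resolution 0.4 it was 1 in venous endothelial, 0 in fibroblast, 1 in T. With pathway genes kept in clustering it was 1 in fibroblast, 1 in T. Leaving out each mouse in turn gave 0 to 4 in T, 12 to 37 in aerocyte, 5 to 14 in the difference, 0 to 1 in all endothelial, 0 to 3 in fibroblast, 0 to 22 in general capillary, 0 to 4 in interstitial macrophage, 0 to 29 in other blood endothelial, 0 to 13 in venous endothelial.

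The labels do not say what a replicate number shares. Correlations of same-numbered mice ranged from -0.21 to 0.22 over 24 pairs in 8 classes. With so few mice per group these values cannot settle whether the numbers pair the mice. With the replicate number as a replicate block the count of genes called was 58 in aerocyte, 13 in general capillary, 33 in venous endothelial, 1 in other blood endothelial, 1 in all endothelial, 0 in fibroblast, 1 in interstitial macrophage, 2 in T. Of the members 0 were called, again with endothelial Smad6 left out of the count.

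Few endothelial cells per mouse limit what could be seen: 22 to 58 aerocyte-like and 26 to 130 general capillary-like cells, where 19 and 28 of the 60 other pathway genes had counts enough to be tested. Pericyte or smooth muscle-like cells could not be fitted with UMI total alone or at resolution 0.4, venous endothelial-like cells could not with doublets kept, and a replicate block was not run for the difference between classes.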
